A study of Mus musculus with 32 samples.

Results

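The Ikaros zinc finger family has 5 members in the mouse, Ikzf1 (Ikaros), Ikzf2 (Helios), Ikzf3 (Aiolos), Ikzf4 (Eos) and Ikzf5 (Pegasus). They were taken by gene symbol, with no measured value in the rule, but with earlier results of these data known. They make up 5 of the 24475 genes in the expression tables. In the peak lists, 212 of 215616 peaks carried the name of a member. The study compared 2 mouse cell lines and asked where the zinc finger factor Bcl11b acts in each of them. The cells of ILC2/b6 are group 2 innate lymphoid cells, grown with the cytokines IL-2, IL-7 and also IL-33, while Scid.adh.2c2 cells resemble T cell progenitors and were grown in medium for which no cytokine is listed. Cells of each line carried either a vector for a guide RNA against Bcl11b (sgBcl11b-CFP) or a vector for a control guide (sgControl-CFP), so both groups were transduced and carried the CFP marker. RNA was sequenced from 2 libraries in each of these 4 groups. ChIP-seq of Bcl11b, GATA3, Runx1 and Runx3 gave 1 peak list per factor and line, each from 2 libraries of cells for which no guide is labelled.

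Ikaros family proteins bind DNA through zinc fingers near the amino terminus and pair with themselves or with each other through zinc fingers at the carboxyl end. They repress or activate genes in lymphocytes, in part by bringing chromatin remodelling complexes such as NuRD to DNA. Ikaros is needed for lymphoid development and restrains the response to Notch in developing T cells. Helios is known from regulatory T cells, Aiolos from B cells and from natural killer (NK) and innate lymphoid cells, and Eos from work with Foxp3 in regulatory T cells. Pegasus is the most distant member and recognises other DNA letters than the rest of the family.

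In ILC2/b6 cells with the Bcl11b guide, Ikzf3 mRNA fell to 0.800 of its level with the control guide, Ikzf4 was called higher by 1.16-fold, and the other members did not pass the test. Of all genes tested there, 14.5% were called, 8.32% higher and 6.21% lower. The Ikzf4 call was lost in 8 of 12 alternatives and the Ikzf3 call in 2 of 12. In Scid.adh.2c2 cells with the Bcl11b guide, all of the 4 members expressed there rose: Ikzf3 by 2.39-fold, Ikzf1 by 1.53-fold, Ikzf2 by 1.51-fold and Ikzf5 by 1.19-fold. In that line 57.8% of all tested genes were called, 35.1% higher, and the Ikzf5 call was lost in 4 of 12 alternatives. Ikzf3 thus changed in opposite directions in the lines. Peaks of all 4 factors lay around Ikzf1, Ikzf2 and Ikzf3 in both lines, in part at the same sites and in part at sites seen in 1 line.

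The RNA libraries held 34.7 to 43.7 M reads (M, mega), as recovered from the steps of the deposited values, and 1 read on Ikzf1 was worth 0.00447 to 0.00564 RPKM (reads per kilobase of transcript and per M reads). Bcl11b mRNA itself was 7.04 and 7.24 RPKM with the Bcl11b guide and 6.85 and 6.33 RPKM with the control guide in ILC2/b6. In Scid.adh.2c2 it was 47.1 and 46.8 RPKM with the Bcl11b guide and 47.0 and 49.5 RPKM with the control guide. It did not differ by the test in either line (limma, Benjamini-Hochberg adjusted p = 0.278 and 0.455), so the mRNA does not check the guide labels, and no protein was measured. All 9 group 2 innate lymphoid markers were at 1 RPKM or more in ILC2/b6, where 2 of 9 pro-T markers were, and all 9 pro-T markers were at 1 RPKM or more in Scid.adh.2c2. In Scid.adh.2c2, 6 of the 9 innate lymphoid markers were at 1 RPKM or more with the Bcl11b guide and 4 with the control guide. The innate lymphoid markers summed to 5850 and 6001 RPKM with the Bcl11b guide and to 8287 and 8458 RPKM with the control guide in ILC2/b6. Il5, Il13 and Areg made up nearly all of that difference, while Klrg1 had 151 and 151 RPKM with the Bcl11b guide and 134 and 133 RPKM with the control guide, and the Il1rl1 values overlapped. The pro-T markers summed to 770 and 773 RPKM with the Bcl11b guide and to 1166 and 1199 RPKM with the control guide in Scid.adh.2c2, where Cd3g and Cd3d lay higher with the Bcl11b guide and Tcf7, Il2ra, Rag1, Notch1, Thy1 and Ptcra lower. B cell markers were near 0, with Pax5 and Ms4a1 listed at 0 in every library. In Scid.adh.2c2 the 5 NK markers summed to 84.6 and 82.3 RPKM with the Bcl11b guide and to 1.31 and 1.80 RPKM with the control guide, and 3 of them were at 1 RPKM or more with the Bcl11b guide and 0 with the control guide. The 4 mast cell markers summed to 62.6 and 62.8 RPKM with the Bcl11b guide and 23.5 and 21.4 RPKM with the control guide, nearly all of it Cpa3, while Fcer1a and Mcpt4 were listed at 0. The 5 myeloid markers summed to 8.50 and 7.73 RPKM with the Bcl11b guide and 3.41 and 2.95 RPKM with the control guide, with Spi1 at 3.32 and 2.71 RPKM with the Bcl11b guide and at 0 and 0.020 RPKM with the control guide. The 4 erythroid markers summed to 4.67 and 5.11 RPKM with the Bcl11b guide and to 1.03 and 1.48 RPKM with the control guide, and the 4 stromal markers to 1.46 and 1.33 RPKM with the Bcl11b guide and to 5.53 and 5.97 RPKM with the control guide. In ILC2/b6 the summed stromal markers were 12.8 and 11.1 RPKM with the Bcl11b guide and 5.50 and 6.16 RPKM with the control guide, nearly all of it Dcn, and the erythroid ones 27.4 and 27.2 RPKM with the Bcl11b guide and 17.0 and 15.3 RPKM with the control guide, nearly all of it Hba-a1. The NK sums there were 12.8 and 12.5 RPKM with the Bcl11b guide and 9.48 and 9.13 RPKM with the control guide, and the myeloid sums were 0.939 to 1.69 RPKM, with Lyz2, Csf1r and Spi1 listed at 0. The part of these shifts in the results on the family was not tested. Whether the libraries of a group come from separate cultures is not labelled, and the p-values cover the spread among libraries, which may be technical. In such bulk samples, fewer cells that carry a transcript and less of it per cell cannot be told apart.

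The lines differed in which members they expressed, as the plot of RPKM by library shows. In control cells of both lines Ikzf1 was the most abundant member per kilobase of transcript, followed by Ikzf3. The third was Ikzf4 in ILC2/b6 and Ikzf5 in Scid.adh.2c2. Ikzf4 made up 13.1% and 13.5% of the family's summed RPKM in ILC2/b6 control libraries, and 0.0795% and 0.0656% in control libraries of Scid.adh.2c2. Ikzf2 took 1.00% and 1.05% of that sum in ILC2/b6 control cells and 7.26% and 7.56% in Scid.adh.2c2 control cells. The tables of the lines may have been scaled apart, so levels were set side by side without a test. Both tables give each member 1 transcript model, and the model was the same in both.

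**Figure D1:**
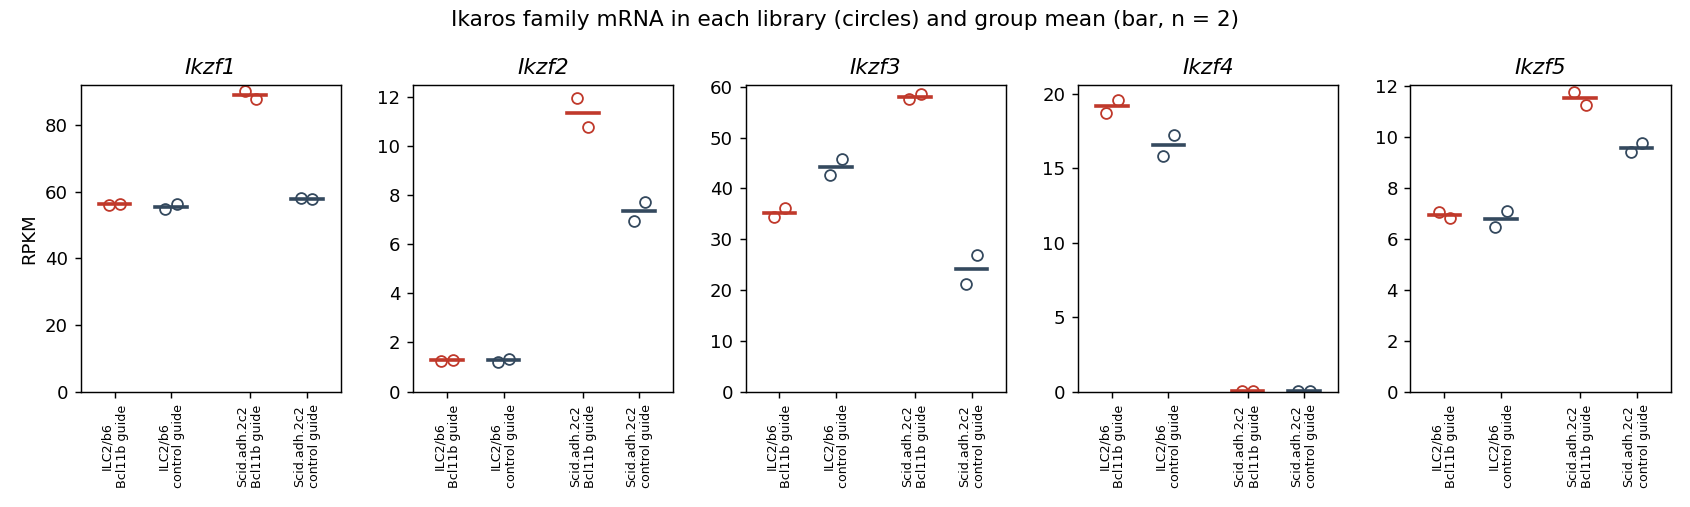
RPKM of each family member (y axis, from 0, its own scale per gene) in the 4 RNA groups (x axis, Bcl11b guide left of control guide in each line). Circles are single libraries and bars are means of 2 libraries. Ikzf1, Ikzf2, Ikzf3 and Ikzf5 lie higher with the Bcl11b guide in Scid.adh.2c2, Ikzf3 lies lower with it in ILC2/b6, and Ikzf4 is near 0 in Scid.adh.2c2.

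Ikaros, encoded by Ikzf1 (mm9, chr11:11590180-11672929, plus strand), had 56.0 and 56.4 RPKM with the Bcl11b guide and 54.6 and 56.2 RPKM with the control guide in ILC2/b6. The groups overlapped there, and the log2 fold change was 0.02 ± 0.04 (SE; limma adjusted p = 0.756). In Scid.adh.2c2 it had 90.2 and 87.7 RPKM with the Bcl11b guide and 57.9 and 57.6 RPKM with the control guide. Both guide libraries lay above both control libraries, by a log2 fold change of 0.62 ± 0.04 (limma adjusted p = 1.04e-05). Ikzf1 thus stood at nearly the same RPKM in control cells of both lines and moved in 1 of them. Of all tested genes in Scid.adh.2c2, 15.8% had a change of at least that size in either direction.

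Helios, encoded by Ikzf2 (mm9, chr1:69577784-69732534, minus strand), was the least expressed member in ILC2/b6, with 1.26 and 1.29 RPKM with the Bcl11b guide and 1.21 and 1.34 RPKM with the control guide. The guide values lay between the control values, and the log2 fold change was 0.00 ± 0.10 (limma adjusted p = 0.989). In Scid.adh.2c2 Ikzf2 had 11.9 and 10.8 RPKM with the Bcl11b guide and 6.94 and 7.73 RPKM with the control guide. The groups did not overlap, and the log2 fold change was 0.60 ± 0.08 (limma adjusted p = 0.000633).

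Aiolos, encoded by Ikzf3 (mm9, chr11:98326007-98407345, minus strand), had 34.3 and 36.1 RPKM with the Bcl11b guide and 42.6 and 45.8 RPKM with the control guide in ILC2/b6. Both guide libraries were lower than both control libraries, by a log2 fold change of -0.32 ± 0.05 (limma adjusted p = 0.00647). That call was lost at 2 settings: the limma adjusted p was 0.0504 without the filter on low genes and 0.0654 in a joint fit of the 8 RNA libraries. In Scid.adh.2c2 Ikzf3 had 57.6 and 58.5 RPKM with the Bcl11b guide and 21.3 and 26.97 RPKM with the control guide. The groups did not overlap, and the log2 fold change was 1.26 ± 0.10 (limma adjusted p = 3.94e-05), a size reached by 6.23% of tested genes in either direction. With the Bcl11b guide its share of the summed family RPKM was 33.6% and 34.8% in that line, against 22.2% and 26.4% with the control guide.

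Eos, encoded by Ikzf4 (mm9, chr10:128067899-128083049, minus strand), had 18.7 and 19.6 RPKM with the Bcl11b guide and 15.8 and 17.2 RPKM with the control guide in ILC2/b6. The groups did not overlap, and the log2 fold change of 0.21 ± 0.05 passed the threshold narrowly (limma adjusted p = 0.0463). Leaving out either guide library or the control library of replicate 1 ended the call (limma adjusted p = 0.0716, 0.222 and 0.115), as did 5 other settings. In Scid.adh.2c2 Ikzf4 had 12 and 5 reads with the Bcl11b guide and 17 and 12 reads with the control guide, or 0.057 and 0.024 RPKM against 0.076 and 0.067 RPKM. It lay below the filter of 1 RPKM and was not tested there.

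Pegasus, encoded by Ikzf5 (mm9, chr7:138532163-138553992, minus strand), had 7.07 and 6.83 RPKM with the Bcl11b guide and 6.47 and 7.10 RPKM with the control guide in ILC2/b6. The groups overlapped, with a log2 fold change of 0.03 ± 0.06 (limma adjusted p = 0.767). In Scid.adh.2c2 it had 11.8 and 11.3 RPKM with the Bcl11b guide and 9.40 and 9.78 RPKM with the control guide. The groups did not overlap, and the log2 fold change was 0.25 ± 0.06 (limma adjusted p = 0.00906). That call ended when log2 values were centred on the median (adjusted p = 0.0766), when libraries were quantile normalised (0.0981), and without the Bcl11b guide library of replicate 1 (0.134) or of replicate 2 (0.0674).

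These counts stand against a background that differed greatly between the lines. In ILC2/b6, 2 of 5 members were called, while 14.5% of the 10526 tested genes were called, 8.32% higher and 6.21% lower. The 2 called members were also those whose guide and control libraries did not overlap, which was so for 59.9% of all tested genes. In Scid.adh.2c2, 4 of 4 tested members were called higher, while 57.8% of the 10221 tested genes were called, 35.1% higher and 22.7% lower. For 4 of 4 members there, and for 80.0% of tested genes, guide and control libraries did not overlap. The median log2 fold change of all tested genes was 0.02 in ILC2/b6 and 0.05 in Scid.adh.2c2. Centring on the median shifted it by -0.13 in Scid.adh.2c2, where the log2 fold changes then were 0.48 for Ikzf1, 0.46 for Ikzf2, 1.13 for Ikzf3 and 0.12 for Ikzf5. With that centring 38.5% of the called genes of Scid.adh.2c2 were higher, against 60.7% without it, and in ILC2/b6 41.7% were, against 57.3%. The same centring moved the median of the difference between the lines by 0.11.

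**Figure D2:**
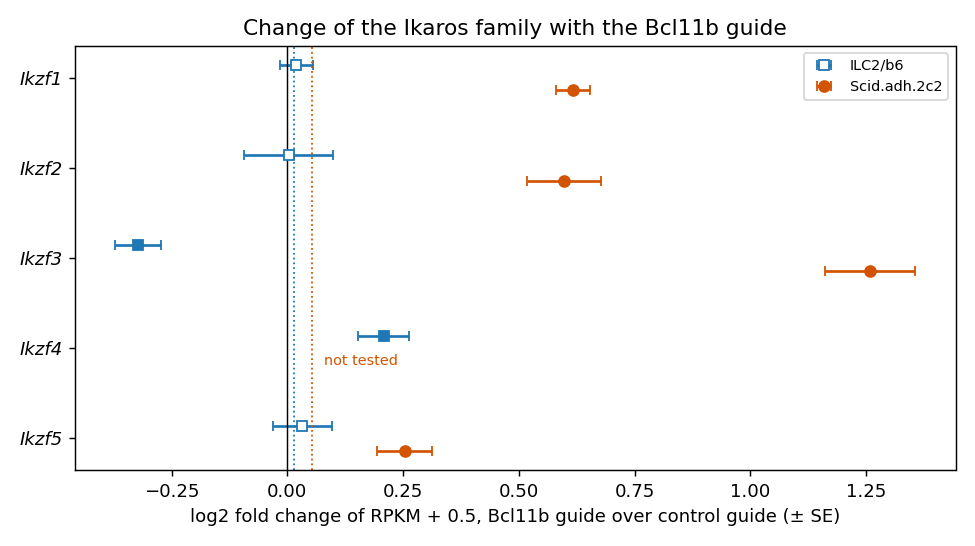
log2 fold change of RPKM + 0.5 with the Bcl11b guide over the control guide (x axis) for each member (y axis), with SE bars from limma over 2 libraries a group. Filled marks passed an adjusted p under 0.05, and dotted lines are the medians of all tested genes in each line. The marks of the lines lie furthest apart for Ikzf3, at -0.32 in ILC2/b6 and 1.26 in Scid.adh.2c2.

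The difference between the lines was itself tested, as the change in ILC2/b6 minus the change in Scid.adh.2c2 over all 8 RNA libraries. It was -1.58 ± 0.13 on the log2 scale for Ikzf3 (limma adjusted p = 4.23e-05). For Ikzf1 it was -0.60 ± 0.04 (limma adjusted p = 2.07e-05) and for Ikzf2 -0.59 ± 0.11 (limma adjusted p = 0.00341). Ikzf4 had a difference of 0.29 ± 0.10 (limma adjusted p = 0.0456), which takes in values near 0 in Scid.adh.2c2 and was lost in 10 of 15 alternatives. With a pseudocount of 0.1 in place of 0.5 that value was 0.51 (limma adjusted p = 0.0520). Ikzf5 had a difference of -0.22 ± 0.08 and missed the threshold (limma adjusted p = 0.0620). In this contrast 4 of 5 members were called, 1 positive and 3 negative, while 45.1% of all 11609 tested genes were called, 18.0% positive and 27.1% negative. The positive one, Ikzf4, passed the filter only through its ILC2/b6 libraries, so its call does not show a measured difference between the lines.

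Among 11608 other genes in the 8 RNA libraries, those whose log2 values most closely followed a member's, after removing each gene's mean, were named by the root mean square difference, with no test. For Ikzf3 the nearest was Kcna3, which encodes the voltage-gated potassium channel Kv1.3 of lymphocytes, at a difference of 0.10 log2 units against a median of 0.64 over all genes. Kcna3 averaged 10.6 RPKM with the Bcl11b guide and 12.5 RPKM with the control guide in ILC2/b6, and 14.9 RPKM with the Bcl11b guide and 6.26 RPKM with the control guide in Scid.adh.2c2. Next came Atp8b4 and Unc13d, at 0.13 each, the second of which encodes Munc13-4, a factor for the release of cytotoxic granules. For Ikzf2 they were Magi3, Ric1 and Zkscan7, at 0.07, 0.09 and 0.11, against a median of 1.09. For Ikzf4 they were Skap2, Lamc1 and Mdfic, at 0.06, 0.07 and 0.07, against a median of 2.70. Skap2, an adaptor of immune cell signalling, averaged 16.4 RPKM with the Bcl11b guide and 15.7 RPKM with the control guide in ILC2/b6, and 0.0075 RPKM with the Bcl11b guide and 0.007 RPKM with the control guide in Scid.adh.2c2. The group means of Ikzf1 and Ikzf5 lay within 1 log2 unit of each other, and no such genes were sought for them.

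Of 18 genes of the complexes through which Ikaros proteins repress (NuRD, Sin3, CtBP and a SWI/SNF ATPase), all 18 were tested in ILC2/b6. There 1 (Rbbp4) rose and 2 (Chd3 and Sin3b) fell, with a median log2 fold change of -0.05 beside 0.02 for all genes, of which 14.5% were called. In Scid.adh.2c2 17 were tested, of which 5 rose and 4 fell, with a median of 0.04 beside 0.05 for all genes, of which 57.8% were called. Chd4, the main NuRD ATPase, had 49.8 and 49.7 RPKM with the Bcl11b guide and 49.3 and 49.2 RPKM with the control guide in ILC2/b6, and did not pass the test in either line (limma adjusted p = 0.808 and 0.344). Chd3, its close relative, fell in ILC2/b6 by 0.44 on the log2 scale (limma adjusted p = 0.00119) and rose in Scid.adh.2c2 by 0.39 (limma adjusted p = 0.000208). Sin3b, a scaffold of the Sin3 complex, likewise fell in ILC2/b6 by 0.14 and rose in Scid.adh.2c2 by 0.43 (limma adjusted p = 0.0427 and 0.000147). With median centring 2 rose and 8 fell in Scid.adh.2c2. No gene of this list changed by 0.5 log2 units or more in either line, and those named here, like Hes1 of the next list, were chosen after their values were seen.

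A second list, like the first, was drawn up with earlier results of these data known, so its counts and median only describe the listed genes. It held 24 genes reported as targets of Ikaros family factors in lymphocytes. In ILC2/b6 9 of them were tested, and 1 rose and 0 fell, with a median log2 fold change of 0.04 beside 0.02 for all genes. The 1 that rose was Hes1, a target of Notch, by 0.29 on the log2 scale (limma adjusted p = 0.0313). No gene of the list rose there without the filter, under quantile normalisation, or without the Bcl11b guide library of replicate 1 or either control library. In Scid.adh.2c2 17 were tested, of which 4 rose and 11 fell, with a median of -0.87 beside 0.05 for all genes, of which 35.1% were called higher and 22.7% lower. Rag1, which cuts antigen receptor genes for recombination, fell most: it had 11.7 and 11.0 RPKM with the Bcl11b guide and 64.1 and 75.7 RPKM with the control guide. Its log2 fold change was -2.57 ± 0.08 (limma adjusted p = 3.48e-07). Genes of the Notch response on the list fell as well, with log2 fold changes of -2.09 for Notch3, -1.77 for Dtx1 and -1.72 for Nrarp. Hes1, called higher in ILC2/b6, had a log2 fold change of -0.87 in Scid.adh.2c2 (limma adjusted p = 4.51e-06). Ptcra, the pre-T cell receptor chain, had a log2 fold change of -1.92 and Il2ra, the high-affinity IL-2 receptor chain, one of -1.86, and both fell as well. Tbx21, which encodes T-bet, a factor of NK and type 1 cells, had 55.0 and 56.9 RPKM with the Bcl11b guide and 3.86 and 3.82 RPKM with the control guide. Its log2 fold change was 3.70 ± 0.05 (limma adjusted p = 2.33e-08). Ifng, also among the 4 that rose, had 5.471 and 4.685 RPKM with the Bcl11b guide and 0.437 and 0.335 RPKM with the control guide. It passed the filter only through the Bcl11b guide libraries, so it could enter that test only as higher. Without the filter it was called as well (limma adjusted p = 0.00104). The size of its log2 fold change, 2.65 ± 0.11, hung on the pseudocount: it was 3.42 with 0.1 and 2.13 with 1. The NK markers moved in these same libraries, and whether any of these genes followed the family members was not tested.

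The peak lists show where Bcl11b and its partner factors lay around the members. By the gene name in the lists, Bcl11b had 18 peaks at the family in ILC2/b6 and 19 in Scid.adh.2c2. Those in ILC2/b6 were 10 at Ikzf1, 6 at Ikzf2, 1 at Ikzf3, 0 at Ikzf4 and 1 at Ikzf5. Those in Scid.adh.2c2 were 8 at Ikzf1, 8 at Ikzf2, 3 at Ikzf3 and 0 at both Ikzf4 and Ikzf5. Of the 9601 genes named in the ILC2/b6 Bcl11b list, 139 had at least as many peaks as Ikzf1, and of the 9259 genes in the Scid.adh.2c2 list, 121 had at least as many as Ikzf1 and Ikzf2. GATA3, the factor that specifies both T cells and group 2 innate lymphoid cells, had 42 family peaks in ILC2/b6 and 44 in Scid.adh.2c2, with 17 and 24 of them at Ikzf2. Only 59 of 13248 genes named in the Scid.adh.2c2 GATA3 list had as many peaks as Ikzf2 or more. The Runt factors Runx1 and Runx3 had 20 and 35 family peaks in ILC2/b6, and 15 and 19 in Scid.adh.2c2. These counts are not scaled to the length of the region a gene name covers, and the lists differ in length.

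Merged over the lists, the family peaks made 75 sites, of which 34 held a peak in both lines, 21 in ILC2/b6 alone and 20 in Scid.adh.2c2 alone. Bcl11b was listed in both lines at 8 sites, in ILC2/b6 alone at 10 and in Scid.adh.2c2 alone at 12. All 4 factors met at 12 sites in ILC2/b6 and at 8 in Scid.adh.2c2. At 4 sites, 3 at Ikzf1 and 1 at Ikzf2, a peak stood in all 8 lists. Sites where every peak carries another name are not counted here, such as 1 inside Ikzf3 with a peak in all 8 lists. GATA3 alone made up 31 sites.

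At Ikzf1, 25 sites named for the gene ran from 32.9 kb upstream to 59.0 kb downstream of the start site of the expression table's transcript, as the map of Ikzf1 peaks shows. Further peaks inside the transcript carry the name Fignl1 in the lists. At 76.1 to 76.2 kb downstream, Bcl11b scored 19.1 in ILC2/b6 and 20.0 in Scid.adh.2c2, and Runx3 210 and 76.1. The outermost upstream site (mm9, chr11:11557155-11557498, intergenic) held Bcl11b peaks with a score of 130 in ILC2/b6 and 107 in Scid.adh.2c2. Its Runx3 peaks had scores of 405 and 160 in the same lines. Scores are the authors' own and rank peaks within a list only: that Runx3 peak had rank 273 of 44938 in ILC2/b6, and the Scid.adh.2c2 Bcl11b peak rank 373 of 17874. GATA3 stood in the ILC2/b6 part of the site with a score of 59.1, and in Scid.adh.2c2 its peak lay beside the site, at chr11:11557510-11557826, with a score of 54.7. The strongest ILC2/b6 Bcl11b peak of the family, rank 241 of 21677 with a score of 143, lay in an intron 35.5 kb downstream (chr11:11625533-11625894). Here ILC2/b6 had scores of 144 for GATA3, 218 for Runx1 and 236 for Runx3, and Scid.adh.2c2 had peaks of all 4 factors with scores of 26.9 for Bcl11b, 42.7 for GATA3, 15.6 for Runx1 and 16.8 for Runx3. At 31.3 kb downstream (chr11:11621269-11621591) all 4 factors had peaks in ILC2/b6, with scores of 59.0 for Bcl11b and 142 for GATA3, and no list of Scid.adh.2c2 had one. A site listed for Bcl11b, Runx1 and Runx3 in Scid.adh.2c2 alone lay 26.5 kb downstream, with scores of 31.6, 33.9 and 34.4. In the intron 21.7 kb downstream (chr11:11611758-11612089) GATA3 had its highest peaks of the locus, with scores of 202 in ILC2/b6 and 275 in Scid.adh.2c2, and all 8 lists had a peak there.

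**Figure D3:**
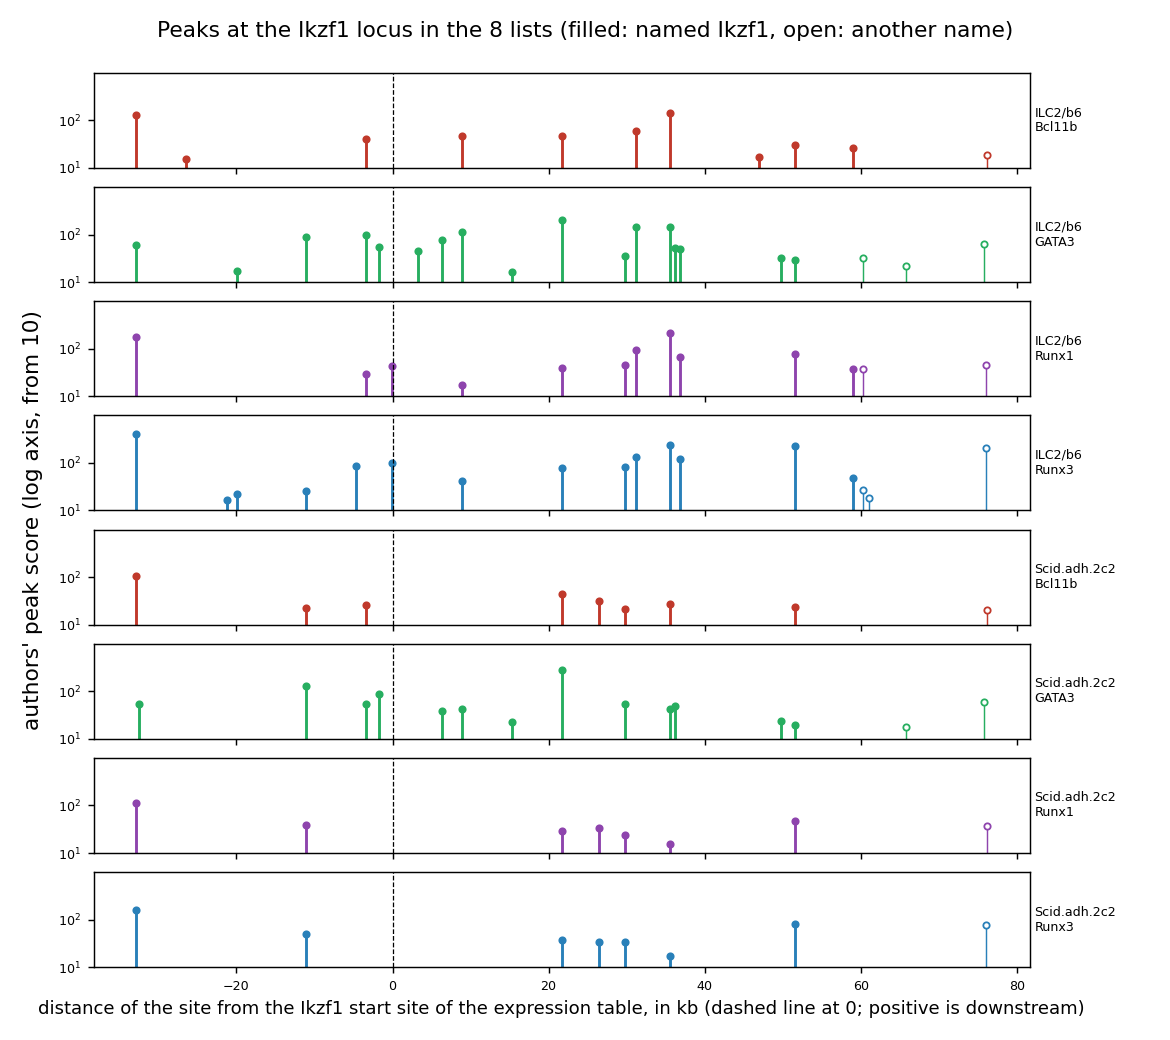
Sites at Ikzf1 in the 8 peak lists (rows, ILC2/b6 above Scid.adh.2c2), by distance from the start site of the expression table's transcript in kb (x axis) and the authors' peak score (y axis, log scale from 10). Filled marks are peaks named Ikzf1 and open marks peaks with another name within 10 kb of the transcript. Bcl11b peaks stand at the outermost upstream site in both lines, and the tall ILC2/b6 marks between 31.3 and 35.5 kb are lower or missing in Scid.adh.2c2.

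At Ikzf2, 36 sites spread over a wider region, of which 7 were in ILC2/b6 alone and 15 in Scid.adh.2c2 alone. Most of these 15 held a GATA3 peak and no other, mainly with low scores, from 15.3 to 23.6. The GATA3 list of Scid.adh.2c2 was also the longer one, with 36973 peaks against 33709 in ILC2/b6. Whether these sites bear on the Ikzf2 level was not tested. Sites with all 4 factors in ILC2/b6 and no peak in Scid.adh.2c2 lay 184, 155 and 142 kb downstream of the start site, toward and beyond the far end of the gene. Of these, the site 184 kb downstream (chr1:69547908-69548229) had the highest scores for Bcl11b, at 45.7, and GATA3, at 106, and the one 142 kb downstream had the highest for Runx1, at 73.4, and Runx3, at 176. Nearer the start site, the site 3.17 kb upstream (chr1:69735542-69735862) held Bcl11b with a score of 30.2 in ILC2/b6 and of 93.7 in Scid.adh.2c2, where it was the highest Bcl11b peak of Ikzf2. Within the gene, Bcl11b peaks at 2.70, 9.79, 28.3 and 47.9 kb downstream were listed in Scid.adh.2c2 alone, with scores of 21.9 to 31.2, and at 28.3 kb GATA3 stood beside Bcl11b with a score of 152. The site present in all 8 lists lay 172 kb downstream (chr1:69560162-69560485), with Bcl11b scores of 23.1 in ILC2/b6 and 74.5 in Scid.adh.2c2.

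At Ikzf3, no site named for the gene held Bcl11b in both lines. ILC2/b6 had 1 such Bcl11b peak, 43.6 kb downstream in an intron with a score of 21.2, beside GATA3 at 80.9. Scid.adh.2c2 had them at 18.9, 32.9 and 48.5 kb downstream, with scores of 25.5, 16.9 and 17.9. The lists pair each peak with 1 start site, and for peaks in the 3' part of Ikzf3 that was the start of Grb7, an adaptor gene that lies past the 3' end of Ikzf3. Within the Ikzf3 transcript and 10 kb on each side, 6 Bcl11b peaks lay in ILC2/b6 and 7 in Scid.adh.2c2, of which 1 and 3 carried the name Ikzf3. One site inside the transcript, 75.7 kb downstream of the start, held peaks of all 4 factors in both lines. Its GATA3 peak (chr11:98331528-98331816 in ILC2/b6, chr11:98331514-98331830 in Scid.adh.2c2) had a score of 352 in ILC2/b6 and of 749 in Scid.adh.2c2, or rank 42 of 33709 and rank 6 of 36973. Bcl11b scored 48.7 in ILC2/b6 and 63.7 in Scid.adh.2c2 there, and Runx3 290 and 105. A pair of sites at 64.6 and 65.8 kb downstream held all 4 factors in ILC2/b6, with Bcl11b scores of 101 and 92.9, and in Scid.adh.2c2 a GATA3 peak with a score of 16.6 at the second of them. In Scid.adh.2c2 alone, Bcl11b, Runx1 and Runx3 had peaks 86.7 kb downstream, past the end of the gene, with scores of 50.9, 65.4 and 76.9. Which of these sites acts on Ikzf3, Grb7 or another gene is not measured by a peak list.

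**Figure D4:**
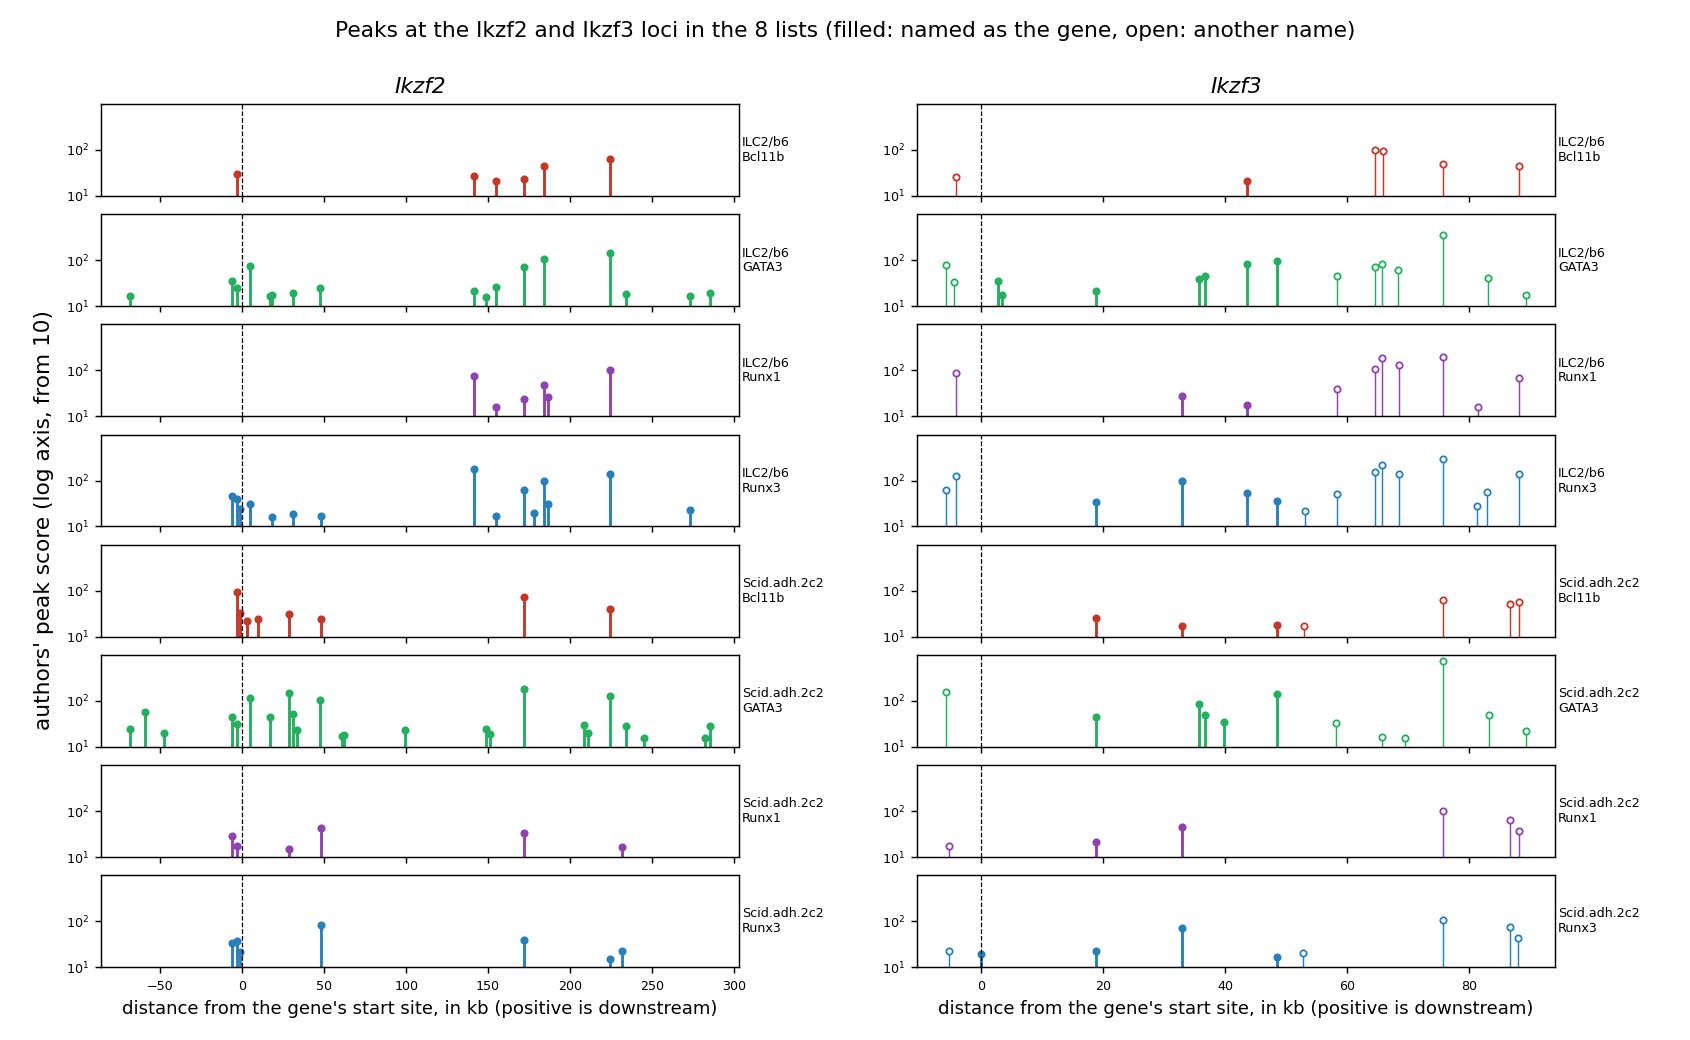
Sites at Ikzf2 (left) and Ikzf3 (right) in the 8 peak lists (rows, ILC2/b6 above Scid.adh.2c2), by distance from the gene's start site in kb (x axis) and the authors' peak score (y axis, log scale from 10). Filled marks carry the gene's name in the lists and open marks another name within 10 kb of the transcript. The tallest mark is the GATA3 peak 75.7 kb into Ikzf3, named Grb7 in the lists, with a score of 352 in ILC2/b6 and 749 in Scid.adh.2c2.

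Ikzf4 and Ikzf5 had few peaks. The only peak named Ikzf4 was a GATA3 peak in Scid.adh.2c2, 10.7 kb upstream with a score of 22.4. Peaks without a gene name lay on its transcript: in ILC2/b6, Runx1 and Runx3 peaks 0.145 and 0.137 kb downstream of its start site had scores of 54.6 and 92.7 (chr10:128082772-128083036 and chr10:128082786-128083038), and Scid.adh.2c2 had no peak at that start site. The lists pair these peaks with another transcript, which starts inside Ikzf4 and runs the other way, 36 and 28 bp before its start. Whether they bear on the Ikzf4 level was not tested. Ikzf4 mRNA was 15.8 and 17.2 RPKM in ILC2/b6 control cells and 0.076 and 0.067 RPKM in those of Scid.adh.2c2. Further in, 8.81 kb downstream, a Bcl11b peak with a score of 33.3 was listed in Scid.adh.2c2 alone, and Runx1 and Runx3 peaks stood there in both lines. Ikzf5 begins 123 bp from Acadsb, a mitochondrial acyl-CoA dehydrogenase gene that runs the other way. The shared start region held Runx1 and Runx3 peaks in ILC2/b6 (scores 28.5 and 76.2). In Scid.adh.2c2 it held Bcl11b, Runx1 and Runx3 peaks (scores 20.7, 18.6 and 26.4), of which the Bcl11b and Runx1 peaks carry the name Acadsb. In that line Ikzf5 and Acadsb both rose, by 0.25 and 0.27 on the log2 scale (limma adjusted p = 0.00906 and 0.0305).

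By name, the members' peaks lay far from start sites more often than those of the lists. That difference was not tested. Most member peaks were named for Ikzf1 and Ikzf2, which hold many peaks each over long regions. Peaks under another name or none are left out of these counts, such as those at the starts of Ikzf4 in ILC2/b6 and Ikzf5 in Scid.adh.2c2. In ILC2/b6, 1 of 18 Bcl11b, 1 of 42 GATA3, 3 of 20 Runx1 and 3 of 35 Runx3 family peaks lay within 1 kb of a start site, beside 33.6%, 6.58%, 25.8% and 24.8% of the whole lists. In Scid.adh.2c2 these were 1 of 19, 0 of 44, 0 of 15 and 2 of 19, beside 43.8%, 4.28%, 44.3% and 37.4%. The promoter peaks named for a member lay at both start sites of Ikzf1 and at those of Ikzf3 and Ikzf5. Sequences of 300 bases, 250 before and 50 after a start site, were taken from RefSeq (GRCm38.p6). The set used held windows for the 2 Ikzf1 start sites and for Ikzf5, and none for Ikzf2, Ikzf3 or Ikzf4. In ILC2/b6, Runx peaks lay at or just before each of the 3 start sites with a window. They are shown 5' to 3' on the gene's strand, with CpG pairs in capitals.

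Ikzf1 first start site, chr11:11685675-11685974, plus strand: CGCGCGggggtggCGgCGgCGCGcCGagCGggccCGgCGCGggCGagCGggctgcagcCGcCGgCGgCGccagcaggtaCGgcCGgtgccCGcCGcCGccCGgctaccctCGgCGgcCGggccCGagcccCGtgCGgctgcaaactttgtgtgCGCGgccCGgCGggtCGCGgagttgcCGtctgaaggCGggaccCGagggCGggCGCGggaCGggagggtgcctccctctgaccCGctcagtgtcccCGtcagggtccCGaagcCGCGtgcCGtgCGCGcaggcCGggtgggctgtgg

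Ikzf1 second start site, chr11:11689927-11690226, plus strand: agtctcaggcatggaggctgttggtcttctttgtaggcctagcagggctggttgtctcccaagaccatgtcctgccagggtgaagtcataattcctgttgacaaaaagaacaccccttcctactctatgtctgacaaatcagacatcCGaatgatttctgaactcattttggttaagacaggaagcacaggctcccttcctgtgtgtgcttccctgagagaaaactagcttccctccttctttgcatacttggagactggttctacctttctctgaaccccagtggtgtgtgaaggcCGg

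Ikzf5 start site, chr7:131410429-131410728, minus strand: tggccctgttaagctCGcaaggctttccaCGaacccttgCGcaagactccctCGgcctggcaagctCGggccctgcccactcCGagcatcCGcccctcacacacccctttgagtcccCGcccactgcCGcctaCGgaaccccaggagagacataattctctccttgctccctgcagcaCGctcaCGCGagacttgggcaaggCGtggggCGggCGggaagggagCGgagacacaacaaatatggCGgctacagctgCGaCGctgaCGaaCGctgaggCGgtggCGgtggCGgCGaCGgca

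The first Ikzf1 window holds 52 CpG pairs and 81.3% G and C, the second 2 CpG pairs and 49.0%, and the Ikzf5 window 27 CpG pairs and 65.7%. Over all 32851 RefSeq windows the median was 7 CpG pairs, with quartiles of 3 and 20. The Ikzf1 start sites are 4252 bp apart in both builds, which ties them to the peaks on mm9. Just before the first window ILC2/b6 had a Runx3 peak with a score of 84.7. At the second, the start of the expression table's transcript, ILC2/b6 had Runx1 and Runx3 peaks with scores of 43.0 and 99.5, and Scid.adh.2c2 had no peak of any factor. Bcl11b peaks stood between the start sites, with scores of 41.1 in ILC2/b6 and 26.0 in Scid.adh.2c2. On both strands, letters of 3 kinds of motif were searched. For Runx factors the search took TGTGGT and also the letters TGCGGT. For GATA factors it took the core GATA with A or T before it and A or G after it. For Ikaros factors it took the letters TGGGAA. None occurs in the 3 windows, while 22.4%, 29.8% and 25.6% of all windows hold the Runx, GATA and Ikaros letters. No match says only that these letters are not in these windows.

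Sharing between the lines was set beside the whole lists. Of the family's Bcl11b peaks, 8 of 18 in ILC2/b6 and 8 of 19 in Scid.adh.2c2 overlapped a Bcl11b peak of the other line, or 44.4% and 42.1%, beside 35.6% and 43.1% of the lists. All 8 were at Ikzf1 and Ikzf2. Bcl11b peaks under another name are left out, such as those of both lines inside Ikzf3, 75.7 kb downstream of its start. Among Bcl11b peaks more than 1 kb from a start site, a choice made after seeing where the family peaks lie, these were 7 of 17 and 7 of 18, beside 18.9% and 27.2% of the lists. Family peaks of GATA3 were shared for 29 of 42 in ILC2/b6 and 29 of 44 in Scid.adh.2c2, beside 51.8% and 47.3% of the lists. Those of Runx1 were shared for 8 of 20 in ILC2/b6 and 7 of 15 in Scid.adh.2c2 (lists 26.4% and 50.7%), and those of Runx3 for 15 of 35 in ILC2/b6 and 15 of 19 in Scid.adh.2c2 (lists 27.6% and 60.4%).

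Bcl11b is known to bind beside Runx and GATA factors. Of the family's Bcl11b peaks, 16 of 18 in ILC2/b6 and 17 of 19 in Scid.adh.2c2 overlapped a peak of at least 1 of the other 3 factors, beside 90.2% and 80.1% of the lists. The overlap with Runx1 was 14 of 18 and 13 of 19 (lists 71.0% and 61.2%), and that with Runx3 15 of 18 and 15 of 19 (lists 85.0% and 73.5%). With GATA3 it was 14 of 18 in ILC2/b6 and 12 of 19 in Scid.adh.2c2, while 35.0% and 19.3% of the lists overlapped a GATA3 peak. All 3 partners met Bcl11b at 12 of 18 and 8 of 19 family peaks, beside 29.0% and 12.8% of the lists. Among peaks more than 1 kb from a start site the GATA3 overlap was 13 of 17 in ILC2/b6 and 11 of 18 in Scid.adh.2c2, beside 47.4% and 30.2%, and the overlap with all 3 was 12 of 17 and 8 of 18, beside 40.1% and 20.1%. The protocol gives 1 fixation, with DSG and formaldehyde, for all 4 factors, but the inputs are labelled as of 2 kinds, FA and DSG, and are not paired with factors. Whether GATA3 was fixed like the others is therefore uncertain, and its part in these overlaps was not tested. Peaks of 1 gene are not independent of each other, and each list holds no replicate values, so these shares carry no test.

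**Figure D5:**
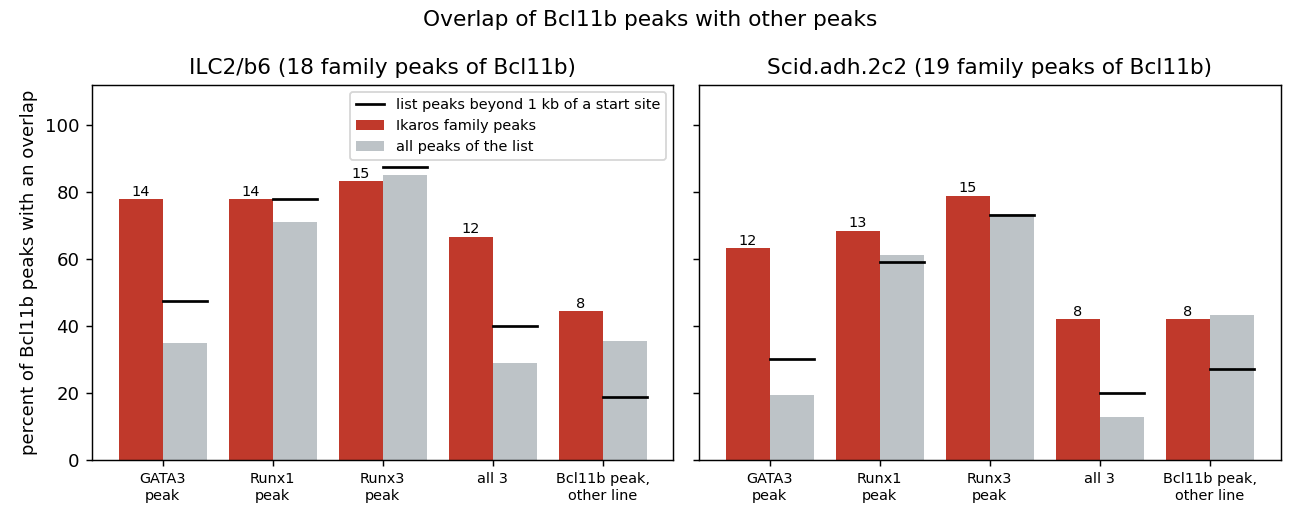
Percent of Bcl11b peaks (y axis) that overlap by at least 1 bp a GATA3, Runx1 or Runx3 peak of the same line, all 3 of them, or a Bcl11b peak of the other line (x axis), in ILC2/b6 (left) and Scid.adh.2c2 (right). Red bars are Bcl11b peaks named for the family (numbers of peaks above), grey bars all Bcl11b peaks, and black lines all Bcl11b peaks more than 1 kb from a start site. The family bars stand above the lists for GATA3 and for all 3 partners in both lines.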

How the data were processed

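RNA-seq (8 libraries) and ChIP-seq (16 libraries, with 8 inputs) of mouse lines ILC2/b6 and Scid.adh.2c2 were read from the deposited files. Reads were single-end, 50 nt, per the labels' protocols. The authors deposited RPKM values in 1 table per line, and only the name of a table gives its line. Tools listed in the submitters' processing notes are STAR 2.4.0, RSEM 1.2.25 and edgeR 3.6.8 as well as Bowtie 1.1.1, Trimmomatic and HOMER; the builds are NCBIM37 and mm9. The use made of each tool: not given in the sources used here. The authors also deposited a peak score for each interval of 8 lists. Per the file headers, each list is an IDR peak set named for 2 libraries and was annotated on mm9 with annotatePeaks.pl, a HOMER program, so peaks hold no replicate values. Intervals were 237 to 317 bp wide and the lowest score was 15.0 or 15.1. The GATA3 lists give every peak a gene name, while 7.37% to 8.31% of peaks in the other lists have none. Inputs were not used here.

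Read depth was recovered from RPKM steps: all of the 3886 to 4516 values tested per library were whole reads within 0.1 read. The library kit is not named as stranded, so overlapping antisense transcripts could not be told apart. Among genes with RPKM values, no neighbour within 50 kb overlapped a member. By the distances in the peak lists, a transcript without a gene name starts inside Ikzf4 and runs the other way. A gene was tested in a line if 2 or more of its libraries reached 1 RPKM. The test was limma 3.58.1 in R 4.3.3 on log2(RPKM + 0.5), its variance prior following the mean; p-values were adjusted by Benjamini-Hochberg over all genes tested and called under 0.05. These fold changes understate changes of low genes. The line difference was an interaction contrast over the 8 RNA libraries. The fit was tested on simulated data. Means are over 2 libraries. Peaks were assigned by the gene name in the lists and overlapped by at least 1 bp (Python 3.11.15, pandas 2.3.3). Named genes were the members, list genes called with at least 0.5 log2 units, at most 8 per list and line, and the 3 genes most like each member whose group means span at least 1 log2 unit, neighbours within 50 kb, and the highest peaks, peaks within 1 kb of start sites and Bcl11b peaks found in both lines; other peaks and genes named were chosen after their values were seen. The alternatives were 0.1 or 1 as pseudocount, no filter, 2 other scalings, no trend, a joint fit, the replicate block, each library left out, a score of at least 30, peaks by transcript span in place of name, reciprocal overlap of 0.5, and a 3 kb promoter window. The members and lists were chosen with earlier results of these data known. Replicate numbers were not taken as pairs, because replicate deviations correlated weakly, a check that does not settle whether libraries were paired.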

Additional observations from a re-analysis of the deposited data

Results flagged for a closer look

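The effect of the Bcl11b guide differed between ILC2/b6 and Scid.adh.2c2 for Ikzf1, Ikzf2 and Ikzf3, by the test of the difference itself (limma interaction contrast, Benjamini-Hochberg adjustment over 11609 genes). Ikzf4 was called as well, but it passed the filter only through its ILC2/b6 libraries, and its call was lost in 10 of 15 alternatives. The change in ILC2/b6 minus that in Scid.adh.2c2 was -0.60 for Ikzf1, -0.59 for Ikzf2, -1.58 for Ikzf3 and 0.29 for Ikzf4 on the log2 scale. For Ikzf3 both Bcl11b guide libraries were lower than both control libraries in ILC2/b6 and higher than both in Scid.adh.2c2. The Ikzf4 value sets a gene expressed in ILC2/b6 against 5 to 17 reads per library in Scid.adh.2c2. In this contrast 45.1% of all tested genes were called.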

How the results depend on the processing

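The rises of Ikzf1, Ikzf2 and Ikzf3 in Scid.adh.2c2 and their differences between the lines kept direction and call in all of the 12 and 15 alternatives run for each. Ikzf3 log2 values ranged from -0.37 to -0.27 in ILC2/b6 and from 1.09 to 1.43 in Scid.adh.2c2. Members called in ILC2/b6 numbered 0 without the filter and in the joint fit, 1 under median centring, quantile normalisation and no trend, and 1 to 2 without 1 library; the cause was not tested. ILC2/b6 values that turned sign were never called: Ikzf1, Ikzf2 and Ikzf5 at -0.0155, -0.0323 and -0.0024 under median centring, Ikzf2 and Ikzf5 at -0.0722 and -0.00478 under quantile normalisation, and without 1 library, where Ikzf1 ranged from -0.000749 to 0.0401, Ikzf2 from -0.048 to 0.0537, with -0.00849 between, and Ikzf5 from -0.0297 to 0.0953. Genes called in ILC2/b6 were 615 without the filter and 807 to 2099 without 1 library, and in Scid.adh.2c2 3760 to 6878. With the replicate block they were 2258 in ILC2/b6 and 5921 in Scid.adh.2c2; the replicate deviations correlated at 0.106 and 0.037 over 2 pairs, so the numbers were not taken as pairs, and the block ended the Ikzf4 line difference (limma adjusted p = 0.0582). For the corepressor list, ILC2/b6 falls were 1 without the filter, under quantile normalisation and with no trend, and 1 to 3 without 1 library; rises were 0 with no trend and 0 to 1. In Scid.adh.2c2 median centring gave 2 rises and 8 falls, and rises were 2 to 7 without 1 library. For the target list, ILC2/b6 rises were 0 without the filter and under quantile normalisation and 0 to 1 without 1 library, and falls 1 under median centring, the block and the joint fit, and 0 to 1. At a score of at least 30, family peaks of Bcl11b, GATA3 and Runx1 were 10, 24 and 12 in ILC2/b6, and those of Bcl11b, GATA3, Runx1 and Runx3 were 8, 26, 7 and 11 in Scid.adh.2c2. Bcl11b peaks shared between lines were then 4 in each, and those with a partner 10 and 7. Promoter peaks were 19 within 3 kb. Depth leaves Ikzf4 in Scid.adh.2c2 at 5 to 17 reads.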

Other observations

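Of 5 genes within 50 kb of Ikzf3, 3 were called in the direction of Ikzf3 in both lines. One of them, Zpbp2, could enter the Scid.adh.2c2 test only as higher. In ILC2/b6, Mien1, Ormdl3 and Zpbp2, its neighbours, fell with the Bcl11b guide by 0.32, 0.19 and 0.98 on the log2 scale (limma adjusted p = 0.00533, 0.0235 and 0.00127), beside a fall of 0.32 for Ikzf3. In Scid.adh.2c2, Mien1 and Ormdl3 rose by 0.37 and 0.55 (limma adjusted p = 0.000422 and 5.46e-05), beside 1.26 for Ikzf3. Zpbp2 had 1.669 and 1.886 RPKM with the Bcl11b guide there and 0.886 and 0.781 RPKM with the control guide. Grb7 had 1.266 and 1.305 RPKM with the Bcl11b guide and 0.336 and 0.738 RPKM with the control guide. Their log2 fold changes were 0.77 and 0.81. Both passed the filter only through the Bcl11b guide libraries, so they could enter the test only as higher, and their calls add nothing. Zpbp2, known from sperm, had 1.66 and 1.97 RPKM with the Bcl11b guide and 4.35 and 3.79 RPKM with the control guide in ILC2/b6. Ormdl3, a regulator of sphingolipid synthesis, had 29.4 and 28.3 RPKM with the Bcl11b guide and 19.4 and 19.8 RPKM with the control guide in Scid.adh.2c2. Erbb2 was below the filter in both lines and Grb7 in ILC2/b6. Among all tested genes 6.21% were called lower in ILC2/b6 and 35.1% higher in Scid.adh.2c2. The share of genes with both calls was not counted, and the neighbours were not run at the alternative settings.

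Beside Ikzf1, Ddc rose by 0.39 in Scid.adh.2c2 (limma adjusted p = 0.000348), where Ikzf1 rose. Fignl1 rose by 0.26 in ILC2/b6 (limma adjusted p = 0.011), where Ikzf1 did not pass the test, and did not pass it in Scid.adh.2c2 (limma adjusted p = 0.45). Beside Ikzf4, none of the 3 neighbours tested in ILC2/b6 was called, and in Scid.adh.2c2 Rab5b and Suox rose by 0.26 and 0.27 and Rps26 fell by 0.21 (limma adjusted p = 0.00562, 0.0272 and 0.0372). Pstk, 811 bp from Ikzf5, fell by 0.32 in Scid.adh.2c2 (limma adjusted p = 0.00225), where Ikzf5 rose. Of the factors mapped by ChIP, Runx3 mRNA had 18.0 and 18.2 RPKM with the Bcl11b guide and 3.07 and 3.28 RPKM with the control guide in Scid.adh.2c2, a log2 fold change of 2.34 ± 0.07 (limma adjusted p = 2.58e-07), while the Runx3 peaks come from cells for which no guide is labelled.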
